A study of Rattus norvegicus with 6 samples.

Results

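Cytosolic ribosomal proteins are the proteins of the ribosome that translates nuclear mRNAs. They fall into a large subunit (gene symbols Rpl and Rplp), which joins amino acids, and a small subunit (Rps), which reads the mRNA. Most of their mRNAs begin with a run of pyrimidines, the terminal oligopyrimidine (TOP) motif, through which the kinase mTOR and the protein Larp1 set their translation, and acinar cells of the pancreas are packed with ribosomes because they secrete digestive enzymes. Members were set by symbol, with earlier results of these data known. An array probe counted where its RefSeq accession belonged to a current rat gene named Rpl, Rps or Rplp followed by a number. This gave 71 genes, 45 of the large and 26 of the small subunit, out of 13903 genes that the array names, and 73 of its 24684 probes.

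The arrays were 1-colour Agilent arrays for rat mRNAs and long noncoding RNAs, with 3 deposited scans per group. The AP group was pancreas of male rats of 6 weeks with acute pancreatitis, an inflammation of the gland, taken 9 h after sodium taurocholate (4%, 1 mL/kg) was infused backwards into the pancreatic duct. The other group was pancreas of control rats of the same sex and age, and the labels give no strain and do not say whether these had a sham operation. RNA had been depleted of rRNA and amplified by random priming, so the rRNA of the ribosome itself was not measured.

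Scans 2 and 3 of each group were repeat scans of 1 array (correlation of single-spot deviations 0.988 and 0.991, against 0.195 to 0.721 for the 13 other pairs), so each comparison was of 2 AP arrays with 2 control arrays. All lay on 1 slide, in slots 3 and 4 for AP and 1 and 2 for control, so slot and group cannot be told apart. The 75th percentile of the signal was 70.1 to 77.7 on AP scans and 140 to 147 on control scans. Values are log2 signals relative to that percentile of their scan, and folds are therefore relative to the whole signal; without this scaling the median log2 fold change over 8735 named genes was -0.99 in place of -0.03. The arrays went against their labels in the genes of injury: 10 of 10 such genes tested were lower on the arrays labelled AP, Ccl2, a chemokine for monocytes, by 57.8-fold and Cxcl2, a chemokine for neutrophils, at least 215-fold. Of these genes, 4 were not well above background on any AP scan and entered the test through their control scans. Each direction below follows the deposited labels, and "AP arrays" means the arrays labelled AP. In bulk tissue, fewer cells of a type and less RNA per cell cannot be told apart.

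The starts of 56 of the 71 genes were found among RefSeq promoters of the rat assembly GRCr8. From these 56, 10 are shown, those of the tested members with the largest rises and the lowest log2 fold changes. Rpl7 and Rpl15 had no start there and were passed over. Each line runs 5′ to 3′ on the gene's strand from 25 bases before the annotated start to 15 bases from it on. Capitals mark a run that begins with C and goes on with at least 4 of C or T, starting within 5 bases of the annotated start.
Rpl6, chr12:41011676-41011715, minus strand: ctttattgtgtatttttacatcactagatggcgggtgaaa
Rpl12, chr3:36661915-36661954, plus strand: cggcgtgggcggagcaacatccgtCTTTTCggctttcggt
Rps14, chr18:56498235-56498274, plus strand: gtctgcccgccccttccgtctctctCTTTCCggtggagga
Rps10, chr20:5700730-5700769, minus strand: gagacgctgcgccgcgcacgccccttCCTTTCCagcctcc
Rps27, chr2:177964592-177964631, minus strand: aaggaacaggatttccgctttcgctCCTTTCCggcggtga
Rpl18, chr1:105325245-105325284, plus strand: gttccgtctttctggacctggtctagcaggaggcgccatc
Rplp2, chr1:205975896-205975935, plus strand: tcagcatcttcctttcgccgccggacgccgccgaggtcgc
Rpl28, chr1:78083518-78083557, minus strand: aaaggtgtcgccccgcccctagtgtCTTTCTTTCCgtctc
Rplp1, chr8:71290858-71290897, minus strand: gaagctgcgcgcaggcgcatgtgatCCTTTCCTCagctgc
Rpl39, chrX:121195882-121195921, minus strand: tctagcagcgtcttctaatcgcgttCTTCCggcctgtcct

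Such a run stood at 36 of 56 member starts (64.3%), against 17.0% of 27457 promoters in the table. At the annotated base itself it stood at 21 of 56 (37.5%), against 2.63% of the promoters. The run was found at 22 of 36 large subunit starts and 14 of 20 small subunit starts. Among members that rose (below) 18 of 23 starts had it, and among tested members that were not called 15 of 28 had it. The letters CTTTCC, which can overlap the run, lay between 10 bases before and 15 bases after the start on the gene's strand in 23.2% of member promoters and 1.01% of all. CCGGAAG, the core read by many ETS factors, was in 30.4% of the member promoters and 9.22% of all, searched on both strands from 250 bases before to 50 after the start, AAGATGG in 14.3% and 7.3%, and TATAA between 40 and 15 bases before the start in 10.7% and 3.59%. These are matches of letters to annotated starts, of which the first listed was used for each gene.

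A large minority of the ribosomal protein mRNAs rose on the AP arrays relative to the whole signal, and most of them turned negative without scaling. Of 71 genes, 66 were tested, and 29 rose (43.9%), none fell and 37 were not called (limma, adjusted p below 0.05). The test compared 2 arrays per group, except for 9 members that marked spots left with only 1 array in AP, control or both (Rpl13, Rpl24, Rpl34, Rpl36, Rps3, Rps6, Rps12, Rps25 and Rps27a), all among those not called. With outlier-marked spots kept, an alternative chosen after seeing the data, Rpl34, Rpl36 and Rps3 were called higher (adjusted p = 0.0475, 0.0207 and 0.0374). At an unadjusted p below 0.05, 36 were higher and 0 lower. Over all named genes 24.1% rose and 31.9% fell. The median log2 fold change of the members was 0.40, with a range of -0.24 to 1.78 and a positive value in 60 of 66. The median turned to -0.55 without scaling, where 1 member rose and 36 fell (5.3% and 62.4% of all named genes). It was 0.07 under quantile normalization, where 14 rose and 5 fell (22.9% and 30.8% of all named genes). With the 75th percentile kept and normexp background correction, 2 rose and the median was -0.00. Leaving out AP replicate 1 or control replicate 1 left 9 rises, leaving out control replicates 2 and 3 left 11, and leaving out AP replicates 2 and 3 left 13. Of 57 members with a value on every array, 46 had both AP arrays above both control arrays (80.7%), and 3 had both below (5.26%), against 37.0% above and 42.8% below over all named genes.

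**Figure D1:**
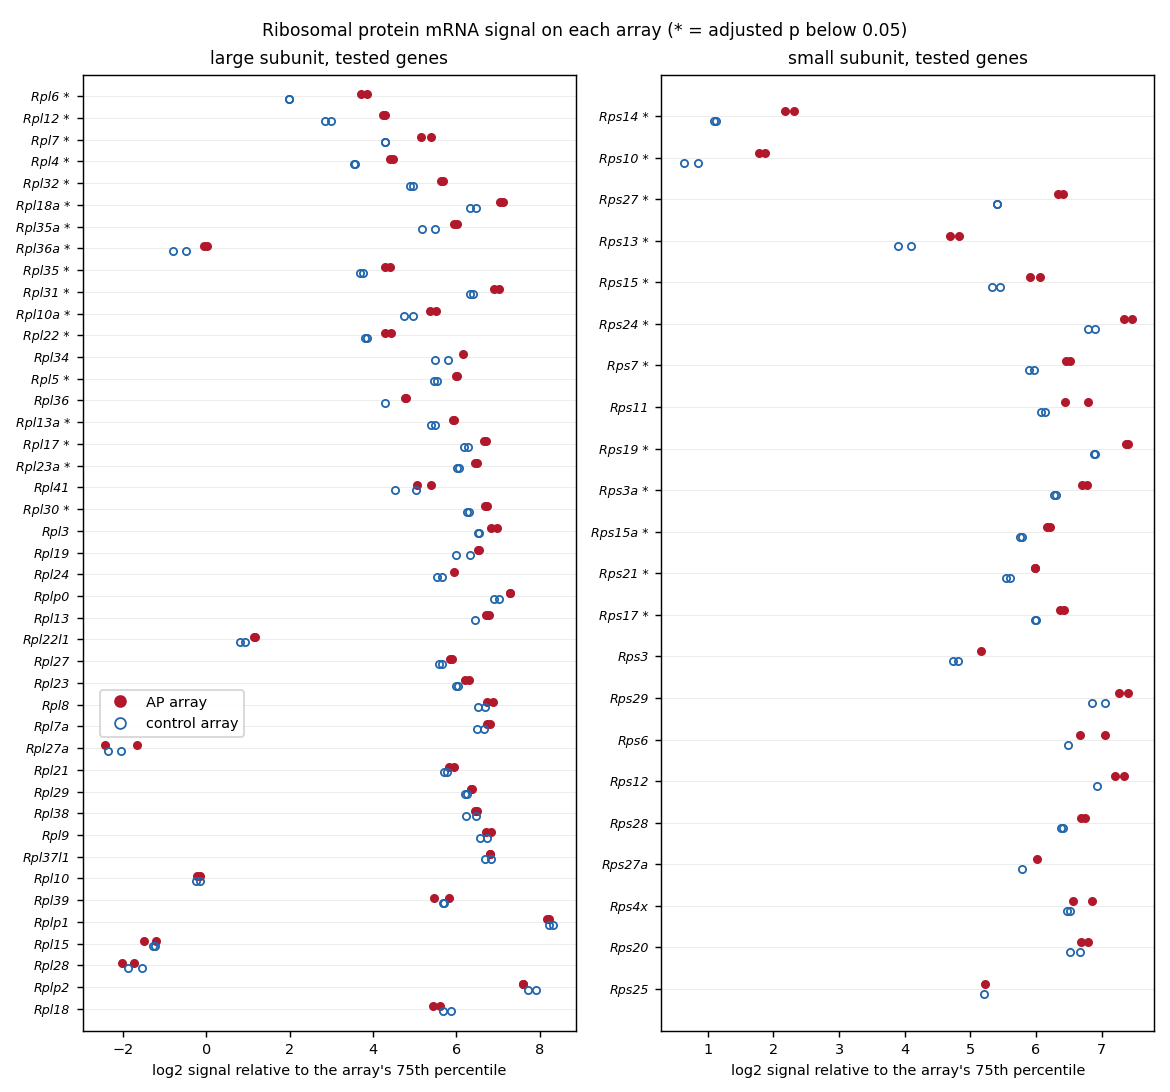
Signal of the tested ribosomal protein genes on each array (1 tested gene is not shown), large subunit on the left and small subunit on the right, ordered by fold change; the x axis is the log2 signal relative to the 75th percentile of the array, filled points are AP arrays, open points control arrays, and a star marks an adjusted p below 0.05. AP points lie to the right of the control points for most genes under this scaling (median log2 fold change 0.40, -0.55 without scaling), and levels of different genes come from different probes and are not comparable.

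The largest rise was that of Rpl6, a large subunit protein. Its log2 signal was 3.85 and 3.70 on the AP arrays, against 1.99 and 1.99 on the control arrays. The groups lay far apart, and the difference was 1.78 ± 0.11 on the log2 scale, or 3.44-fold (SE, n = 2 per group, limma, adjusted p = 0.00157). Rpl6 was the single member that rose under every one of 7 scalings tried, with 0.83 and no scaling (adjusted p = 0.00884). Rpl12 forms the base of the stalk where elongation factors dock. It stood at 4.29 and 4.24 on AP arrays and at 2.85 and 2.99 on control arrays, without overlap (1.34 ± 0.10, adjusted p = 0.00261; 0.39 and not called without scaling).

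Rpl7, which binds rRNA of the large subunit, had 5.15 and 5.38 on AP arrays and 4.28 and 4.30 on control arrays. Rpl4, which lines the tunnel through which the new protein leaves, had 4.49 and 4.41 on AP arrays and 3.54 and 3.57 on control arrays. Rpl32 had 5.67 and 5.62 on AP arrays and 4.89 and 4.95 on control arrays. None of the 3 overlapped, and all 3 rose, Rpl7 by 0.98 (adjusted p = 0.00708), Rpl4 by 0.89 (adjusted p = 0.00488) and Rpl32 by 0.72 (adjusted p = 0.00763). Without scaling Rpl7 was at 0.02, while Rpl4 and Rpl32 turned to -0.06 and -0.24.

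In the small subunit the largest rises were those of Rps14 and Rps10. Rps14, a protein of the platform whose loss of 1 copy causes anaemia in a human myelodysplastic syndrome, had 2.31 and 2.18 on AP arrays and 1.09 and 1.12 on control arrays. Its groups did not overlap, and it rose 2.21-fold (1.14 ± 0.10, SE, n = 2 per group, limma, adjusted p = 0.00352; 0.19 and not called without scaling). Rps10, which is ubiquitinated when ribosomes collide, had 1.78 and 1.87 on AP arrays and 0.85 and 0.64 on control arrays. It too rose without overlap (1.08 ± 0.12, adjusted p = 0.00576; 0.12 and not called without scaling).

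Rps27, a zinc finger protein of the small subunit, had 6.34 and 6.41 on AP arrays and 5.40 and 5.41 on control arrays, and rose by 0.97 (adjusted p = 0.00400; 0.01 and not called without scaling). Rps13 stood at 4.83 and 4.68 on AP arrays and at 3.89 and 4.10 on control arrays (0.76, adjusted p = 0.0142). Rps15, a protein of the head near the decoding site, stood at 6.06 and 5.91 on AP arrays and at 5.45 and 5.32 on control arrays (0.61, adjusted p = 0.0183). The arrays of both groups were apart for all 3 genes, but Rps13 and Rps15 turned to -0.20 and -0.35 without scaling. Both also lost their call without AP replicate 1 (adjusted p = 0.0614 for Rps13 and 0.0713 for Rps15) or control replicate 1 (0.0601 and 0.0587), and Rps15 without control replicates 2 and 3 (0.0867).

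The stalk proteins Rplp0, Rplp1 and Rplp2, which recruit and activate elongation factors, were not called higher. Rplp0, the anchor of the stalk, had 7.29 and 7.30 on AP arrays and 6.89 and 7.03 on control arrays; these did not overlap, but the difference of 0.33 was not called (adjusted p = 0.0603) and was -0.30 under quantile normalization and -0.62 without scaling. Rplp0 was called higher under 4 alternatives that keep the scaling. Among these were a robust variance trend (adjusted p = 0.0320) and probes above background on all 6 scans (0.0392). The scan session as a block (0.0126) and 6 scans as separate replicates (0.00408) also called it. These fits count repeat scans of 1 array separately, so their p-values treat repeat scans as replicates. Under normexp with quantile normalization Rplp0 was called lower, by -0.22 (limma, adjusted p = 0.0242). Rplp1 had 8.23 and 8.17 on AP arrays and 8.23 and 8.32 on control arrays, which nearly touched (-0.08, adjusted p = 0.547). Rplp2 had 7.60 and 7.58 on AP arrays and 7.72 and 7.90 on control arrays, so its AP arrays were the lower ones, with a difference of -0.22 that was not called (adjusted p = 0.175). Under quantile normalization Rplp1 and Rplp2 were called lower, by -0.82 and -0.87.

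The lowest value was that of Rpl18, with 5.44 and 5.61 on AP arrays and 5.68 and 5.86 on control arrays (-0.24, adjusted p = 0.190); it was named for this after its values were seen. The dimmest tested members of the large subunit, Rpl27a, Rpl28 and Rpl15, were at 0.16, -0.16 and -0.09 (adjusted p = 0.696, 0.503 and 0.627). Rpl28 had -1.74 and -2.01 on AP arrays and -1.54 and -1.89 on control arrays, and its groups overlapped. Among bright members of the small subunit, Rps19, the protein most often mutated in human Diamond-Blackfan anaemia, rose by 0.49 (adjusted p = 0.0171), with 7.37 and 7.39 on AP arrays and 6.88 and 6.90 on control arrays. That direction turned under quantile normalization (-0.10) and without scaling (-0.46), and the call was lost in each fit without 1 whole array (adjusted p = 0.0622 to 0.0741). Rps29, with 7.40 and 7.26 on AP arrays and 6.85 and 7.04 on control arrays, was at 0.39 and was not called (adjusted p = 0.0724).

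Several members have roles outside the ribosome. Rpl5, which with Rpl11 holds the p53 ligase Mdm2 in check when ribosome assembly fails, had 6.01 and 5.98 on AP arrays and 5.45 and 5.53 on control arrays. Its arrays did not overlap and it rose by 0.51 (adjusted p = 0.0175). Rpl11 did not stand well above background on any of the 6 scans and has no fold. Rpl13a, which in human monocytes leaves the ribosome to silence inflammatory mRNAs, had 5.93 and 5.91 on AP arrays and 5.40 and 5.49 on control arrays, and rose by 0.48 (adjusted p = 0.0216). Rpl5 and Rpl13a turned to -0.45 and -0.48 without scaling, and both lost their call in each fit without 1 whole array (adjusted p = 0.0654 to 0.0756 for Rpl5 and 0.0701 to 0.0865 for Rpl13a).

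Rps6, the substrate of the S6 kinases, had 6.67 and 7.05 on AP arrays and 6.48 on the 1 control array with an unmarked spot (0.38, adjusted p = 0.287). Rps3, which sits where the mRNA enters, had 5.17 on 1 AP array and 4.81 and 4.73 on control arrays (0.40, adjusted p = 0.105). Rps27a, which is made as a fusion with ubiquitin, had 6.01 on 1 AP array and 5.78 on 1 control array (0.23, adjusted p = 0.434). None of the 3 was called, and for Rps27a, with 1 array per group, the spread came from the other probes alone. With the marked spots kept, Rps3 was at 0.38 (adjusted p = 0.0374), Rps6 was at 0.55 (adjusted p = 0.100) and Rps27a at 0.26 (adjusted p = 0.134). Rps4x, encoded on the X chromosome, had 6.84 and 6.57 on AP arrays and 6.48 and 6.52 on control arrays, without overlap but not called (0.21, adjusted p = 0.273; -0.75 without scaling).

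One pair of paralogues was on the array. Rpl22, which developing T cells of mice require, rose by 0.53 (adjusted p = 0.0205), with 4.44 and 4.29 on AP arrays and 3.81 and 3.86 on control arrays. Its relative Rpl22l1 had 1.17 and 1.16 on AP arrays and 0.81 and 0.92 on control arrays, a difference of 0.30 that was not called (adjusted p = 0.0729). Under quantile normalization both were called higher, at 0.54 and 0.40, and without scaling both were negative, at -0.42 and -0.66. Rpl22 lost its call in each fit without 1 whole array (adjusted p = 0.0505 to 0.0871). The difference between the paralogues was not tested.

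A second probe was present for 2 members, with 1 spot for one probe and up to 10 for the other. The probes gave 0.45 and 0.48 for Rpl13a and -0.03 and -0.08 for Rplp1. Of the members without a test, Rpl14, Rps2, Rps23 and Rps26 had outlier marks on all their spots in a group. With the marks ignored, Rps23 stood at 6.25 and 5.85 on AP arrays and at 5.41 and 5.51 on control arrays (0.59, adjusted p = 0.0541). Rps26, Rps2 and Rpl14 were at 0.45, 0.13 and 0.03, and none was called (adjusted p = 0.0683, 0.381 and 0.864). Rat ribosomal protein genes have many processed copies: the RefSeq gene table holds 807 pseudogene symbols that belong to 70 of the 71 members. Probe sequences were not used here, so signal from such copies cannot be told apart from that of the gene.

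The size of the rise, and for most members its sign, depended on the scaling. Of the 29 members that rose, 13 also rose under quantile normalization. Those that rose under the 75th percentile, quantile normalization, the deposited normalized values and normexp with quantile normalization numbered 12: Rpl4, Rpl6, Rpl7, Rpl12, Rpl22, Rpl32, Rpl35, Rpl36a, Rps10, Rps13, Rps14 and Rps27. Other settings kept fewer of them. Under the median shift 6 rose (Rpl6, Rpl7, Rpl12, Rps10, Rps14 and Rps27). Only Rpl6 and Rpl12 rose under normexp with the 75th percentile, and only Rpl6 without scaling. Of the 5 members called lower under quantile normalization, Rpl18, Rpl37l1, Rplp1 and Rplp2 were also called lower with the deposited normalized values, and Rpl9 was not; these were named after their values were seen. With the deposited values 14 members rose and 4 fell, against 23.0% and 31.2% of all named genes.

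**Figure D2:**
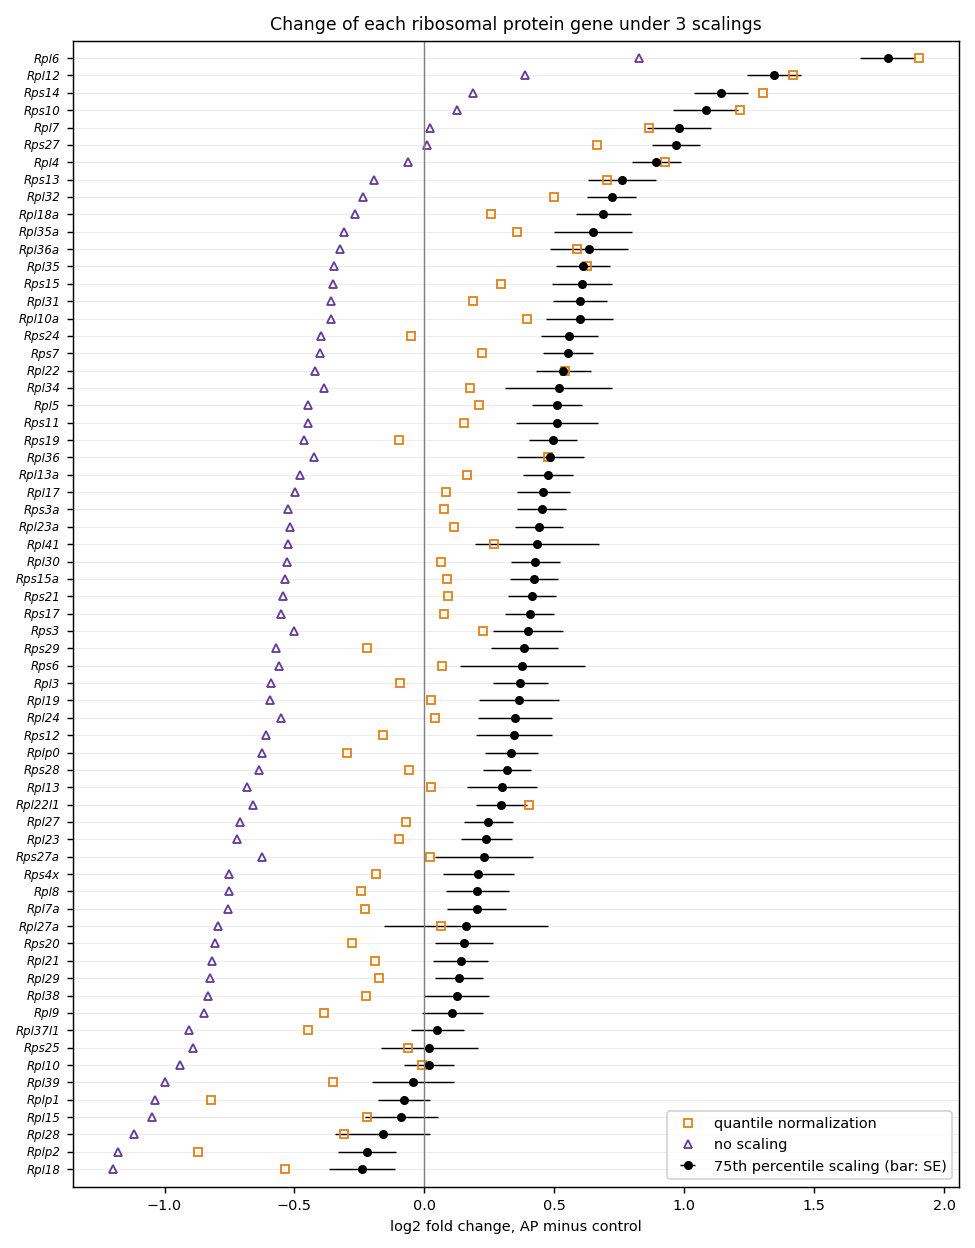
Log2 fold change (AP minus control, x axis) of the tested ribosomal protein genes (1 is not shown) under 75th percentile scaling (filled circles, bars are SE), quantile normalization (open squares) and no scaling (open triangles). Rpl6 and Rpl12 stay to the right of 0 under all 3, whereas the medians over the members are 0.40, 0.07 and -0.55.

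Members differed in how bright they were, and the change was read against other genes of like signal. With a mean log2 signal above 5, 49 members had a median log2 fold change of 0.37 and 19 of them rose (38.8%). The 239 other named genes in that range had a median of 0.95, and 158 rose (66.1%). Without scaling these 239 hardly moved (median -0.01), while the median over all named genes was -0.99. Whether the signal of such bright probes follows the amount of their mRNA was not tested. The members were the lower ones also under quantile normalization (0.02 against 0.41) and without scaling (-0.57 against -0.01). At lower signals the order was the other way: the medians were 0.61 over 7 members and 0.36 over 168 other genes between 4 and 5, 1.56 over 2 members and -0.31 over 1153 between 2 and 4, and 1.08 over 3 members and -0.18 over 2792 between 0 and 2. Below 0 they were 0.02 over 5 members and 0.06 over 4317. Across the 66 members, level and fold change had a Spearman correlation of -0.28, a description across genes that share the same 4 arrays.

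**Figure D3:**
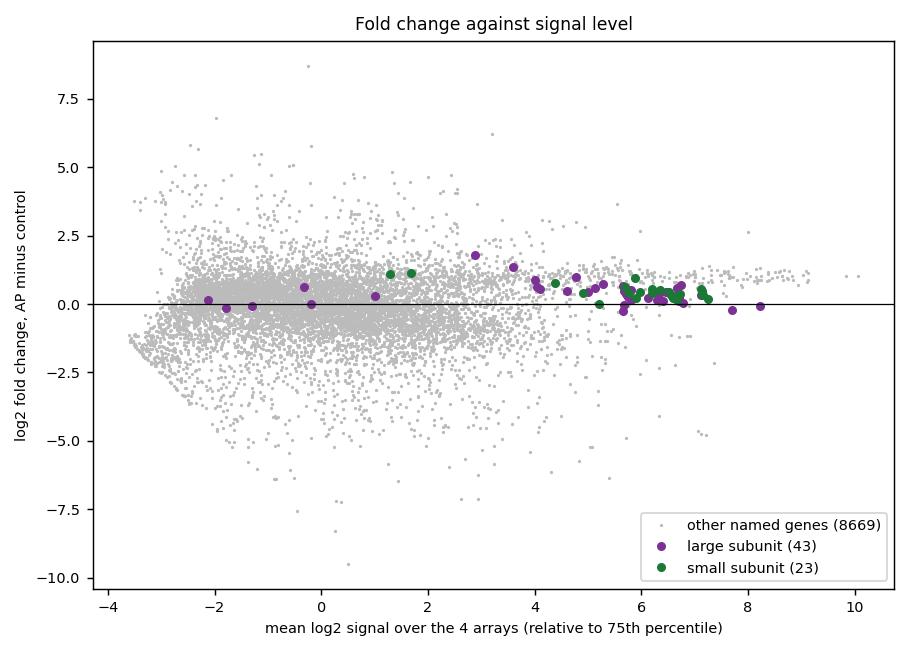
Log2 fold change (AP minus control, y axis) against mean log2 signal over the 4 arrays (x axis) for named genes, with 75th percentile scaling; grey points are other genes, coloured points the large and small subunit genes. Above a signal of 5 the members have a median of 0.37 (-0.57 without scaling), and the other genes there have a median of 0.95 (-0.01 without scaling). Over all named genes the median without scaling is -0.99.

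The medians of both subunits were positive under 75th percentile scaling and negative without scaling. Of the large subunit 17 of 43 tested genes rose and of the small subunit 12 of 23, with medians of 0.36 and 0.41 (-0.59 and -0.53 without scaling), against 24.1% of all named genes. Under quantile normalization 10 large subunit genes rose and 5 fell, and 4 small subunit genes rose and none fell. Of all named genes 22.9% rose and 30.8% fell there. Without scaling 1 large subunit gene rose and 25 fell, and none of the small subunit rose and 11 fell. Of all named genes 5.3% rose and 62.4% fell without scaling. Which subunit had the larger share of rises thus depended on the scaling. Small subunit genes had a narrower middle range of log2 fold changes (lower to upper quartile) from 0.33 to 0.56, against 0.14 to 0.57 in the large subunit. Their probes were also brighter, with a lower quartile of mean log2 signal of 5.73 against 4.36. The part of signal level in the differences between the subunits was not tested. Over all named genes with 75th percentile scaling, both AP arrays were above both control arrays for 37.0% and below both for 42.8%. Both were below for 0 small subunit genes and 3 large subunit genes. Both were above for 18 of 18 small subunit genes and 28 of 39 large subunit genes with a value on every array. Over these genes the mean log2 signal of the large subunit was 5.04 and 5.01 on AP arrays and 4.61 and 4.68 on control arrays. That of the small subunit was 6.11 and 6.03 on AP arrays and 5.52 and 5.55 on control arrays.

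The difference of these means, large minus small, was -1.04 ± 0.03 on AP arrays and -0.89 ± 0.03 on control arrays (SD, n = 2 each). The 2 groups did not overlap in it, and it moved by -0.15, or by -0.09 under quantile normalization and -0.04 with the deposited normalized values. No p is given for a score over chosen members, and a difference in level between the subunits themselves cannot be read from different probes.

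Other genes of the translation machinery moved in different directions. Of 4 tested ribosomal proteins with other symbols, 2 rose. They were Rpsa, a small subunit protein also known as the laminin receptor (1.35 and 1.11 on AP arrays, 0.17 and 0.37 on control arrays, adjusted p = 0.0106), and Rack1, the scaffold on the head of the small subunit (0.53, adjusted p = 0.0141). Of 15 genes for elongation factors and other TOP mRNAs 3 rose and none fell (1 was lower at an unadjusted p below 0.05), with a median of 0.26 that was -0.04 under quantile normalization. That share of 20.0% was near the 24.1% of all named genes, and without scaling none rose and 11 fell (median -0.70). Of all named genes 5.3% rose and 62.4% fell without scaling. Tpt1, a TOP mRNA named after its value was seen, was at -3.19 and was not called. Eef1g and Eef2, which translocates the ribosome, rose by 0.86 and 0.57 (adjusted p = 0.00850 and 0.0160). Eef1a1, which delivers aminoacyl-tRNA, had 7.28 and 7.15 on AP arrays and 7.10 and 6.81 on control arrays and was not called (0.26, adjusted p = 0.211). Without scaling Rpsa, Rack1, Eef1g, Eef2 and Eef1a1 all turned negative (-0.70 to -0.00).

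Genes that make rRNA and assemble ribosomes had a negative median with the 75th percentile, with quantile normalization and with no scaling. Of 32 tested, 18 fell and none rose by limma (19 lower and 0 higher at an unadjusted p below 0.05), with a median of -0.54 (-0.50 under quantile normalization and -1.50 without scaling). Over all named genes 31.9% fell, and 14 of the 32 were not called. Without scaling 31 of the 32 fell, against 36 of the 66 ribosomal protein genes and 62.4% of all named genes. Sbds, which helps release the anti-association factor Eif6 from the large subunit, had 0.50 and 0.20 on AP arrays and 1.40 and 1.55 on control arrays (-1.13, adjusted p = 0.00820). Nop58, a core protein of the box C/D particles that methylate rRNA, had 2.42 and 2.46 on AP arrays and 3.54 and 3.50 on control arrays (-1.08, adjusted p = 0.00323). The groups did not overlap for either gene.

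Of 11 tested genes that control ribosomal protein synthesis, 6 fell and none rose (median -0.48), against 31.9% of all named genes that fell. Under quantile normalization 4 fell and none rose, against 30.8% of all named genes that fell. Without scaling 11 fell, against 62.4% of all named genes. With the 75th percentile, 8 were lower and 0 higher at an unadjusted p below 0.05. Myc, a transcription factor that drives ribosome production, had -1.22 and -1.09 on AP arrays and -0.02 and 0.07 on control arrays (-1.18, adjusted p = 0.00352). Eif4ebp1, a repressor of cap-dependent translation that mTOR inactivates, fell by 2.79 (adjusted p = 0.000749), and Mtor itself fell by 0.95 (adjusted p = 0.00465). Cdkn1a, a p53 target that stops the cell cycle, fell by 3.36 (adjusted p = 0.000716), and Mdm2 fell by 0.44 (adjusted p = 0.0363). The ribosome rescue factor Pelo and the recycling ATPase Abce1 fell by 1.18 and 0.99 (adjusted p = 0.00313 and 0.00614). Of the 4 tested genes of their list 3 fell, against 31.9% of all named genes, and 4 fell without scaling, against 62.4%. Under quantile normalization 3 fell and 1 rose.

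The proteins of the mitochondrial ribosome, which are also encoded in the nucleus, had a median of -0.41 over 49 tested genes of 63, and 7 rose and 19 fell (4 and 13 under quantile normalization, 1 and 41 without scaling). Over all named genes 24.1% rose and 31.9% fell (22.9% and 30.8% under quantile normalization, 5.3% and 62.4% without scaling). Mrps15 rose by 2.29 (adjusted p = 0.000972), with 3.23 and 3.29 on AP arrays and 0.93 and 1.03 on control arrays. Mrps30, of the large mitochondrial subunit in spite of its name, had 0.57 and 0.37 on AP arrays and 1.56 and 1.68 on control arrays (-1.15, adjusted p = 0.00490). Mitochondrial genes spread more widely (quartiles -0.69 and -0.05) than cytosolic ones (0.20 and 0.56). They were also dimmer, with a median log2 signal of 0.95 against 5.89, and the part of signal level in the spread was not tested.

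**Figure D4:**
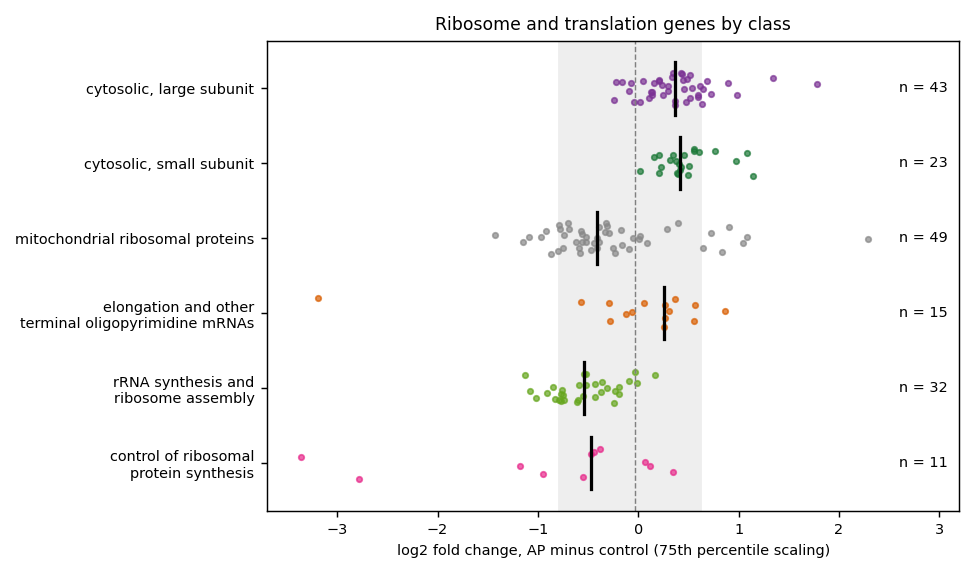
Log2 fold change (AP minus control, x axis, 75th percentile scaling) of tested genes in 6 classes of ribosome and translation genes; black bars are medians, the dashed line is the median of all named genes (-0.03) and the grey band their lower to upper quartile (-0.79 to 0.62). Medians are 0.36 and 0.41 for the cytosolic subunits and -0.41 and -0.54 for mitochondrial ribosomal proteins and ribosome assembly; without scaling the large and small subunit medians are -0.59 and -0.53.

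Markers of several cell types also differed between the groups, in both directions. Over all named genes 24.1% rose and 31.9% fell. Of 11 lymphocyte markers tested, 10 rose and 1 fell, and their summed linear signal was 43.5 and 44.7 on AP arrays against 4.89 and 4.14 on control arrays; 2 of them were not well above background on any control scan. Of 16 acinar markers 9 rose, with sums of 124 and 115 on AP arrays and 97.4 and 97.6 on control arrays. Without scaling 1 rose and 7 fell, against 5.3% and 62.4% of all named genes. Of 6 red blood cell markers 6 fell (sums 29.2 and 30.0 on AP arrays, 644 and 743 on control arrays). Of 7 adipocyte markers 6 fell (16.9 and 16.8 on AP arrays, 454 and 457 on control arrays), and of 6 neutrophil markers 4 fell and 1 rose (1.19 and 2.23 on AP arrays, 17.6 and 19.2 on control arrays). Of 7 fibroblast and stellate cell markers 5 fell, and the sums over the 6 with a value on every array were 33.1 and 27.6 on AP arrays and 84.7 and 84.8 on control arrays. Of 8 monocyte and macrophage markers 2 rose and 1 fell. In 6 duct cell markers 3 fell and none rose, and in 4 islet cell markers 2 fell and none rose. Of the neutrophil markers 3 were not well above background on any AP scan. The same held for 1 each of the red blood cell, duct cell, islet cell and lymphocyte markers. On the control scans it held for 1 monocyte and macrophage marker. Such markers entered the test only through the group where they were bright. The part of these cell types in the ribosomal protein result was not tested.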

How the data were processed

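Per the file headers, arrays were read with Agilent Feature Extraction 11.0.1.1, and spot intensity in the deposited scanner files was already background-subtracted. The authors' deposited normalized table is in log2; it correlated with the log2 processed signal of each scan at 0.987 to 0.999, each column had a median of 4.27, and the tool, centring and scaling behind it are not given in the sources used here. RNA from each rat was used, per the labels' protocols, but p-values measure the spread between these arrays.

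Spots of control probes and outlier-marked spots were left out, spots of a probe were averaged in log2, the 75th percentile of the scan was subtracted, and scans of 1 array were averaged. The test took 13225 probes that stood well above background on 3 or more of the 6 scans. limma 3.58.1 (R 4.3.3; lmFit and eBayes) compared AP with control, two-sided, with Benjamini-Hochberg adjustment over all probes; a gene with several probes took the brightest. Of the probes, 14294 matched a current RefSeq symbol by accession. A bound on a fold, written "at least", uses the lowest signal well above background on each AP scan. The fit was tested on simulated data. For normexp the median spot signal stood in for the mean. Tables and plots used pandas 2.3.3, numpy 2.4.6, matplotlib 3.10.9 and Python 3.11.15.

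Members and gene lists were chosen with earlier results of these data known. Named members were, per subunit, the 5 largest called changes each way, the 3 brightest and the 3 dimmest, and those with a set role or a paralogue; other lists named up to 4 genes. For 1 member no single values are given here, though counts and medians hold it. Same-numbered arrays did not deviate together (correlation -0.214 over 13149 probes), so numbers were not taken as pairs. Alternatives covered scaling, background correction, filters, blocks, probe choice and left-out scans.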

Additional observations from a re-analysis of the deposited data

How the results depend on the processing

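The 29 rises and 0 falls among 66 members, their median of 0.40 (0.36 large, 0.41 small subunit) and the subunit difference of -0.15 moved with scaling. Without scaling 1 rose and 36 fell, with medians of -0.55, -0.59 and -0.53. Quantile normalization gave 14 and 5, medians of 0.07, 0.06 and 0.08 and a subunit difference of -0.09; the deposited normalized values gave 14 and 4, 0.05, 0.06 and 0.04, and -0.04. Normexp with quantile normalization gave 18 and 10, 0.05, 0.07 and 0.05, and -0.05. Normexp with the 75th percentile shift gave 2 rises, medians of -0.00, -0.00 and -0.02, a subunit difference of -0.05 and 2650 changed probes in place of 7283. The median shift gave 6 rises and a large subunit median of 0.30. With 6 scans as separate replicates 45 rose and 2 fell (large subunit median 0.33), and 1 fell where the scan session was a block. Both of these fits count repeat scans of 1 array separately. With the replicate block 11 rose and none fell, and Rps13, Rps19, Rpl5, Rpl13a and Rpl22 had adjusted p of 0.0518, 0.0672, 0.0669, 0.0759 and 0.0693; same-numbered arrays share only a number. Leaving out scans gave 9 to 30 rises (9 without control replicate 1 or AP replicate 1, 11 without control replicates 2 and 3, 13 without AP replicates 2 and 3), 0 to 0 falls, large subunit medians of 0.30 to 0.40 (0.37 without AP replicate 2) and 4639 to 7300 changed probes; fits with fewer arrays assume that the lone array varies like the other group. Keeping marked spots, chosen after seeing the data, gave a subunit difference of -0.10, and scan session 1 alone, also chosen then, left the counts within 1.5 times. Causes were not tested.

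Named members changed sign as follows. Without scaling the values were Rpl4 -0.06, Rpl32 -0.24, Rplp0 -0.62, Rpl27a -0.80, Rps13 -0.20, Rps15 -0.35, Rps19 -0.46, Rps29 -0.57, Rpl5 -0.45, Rps6 -0.56, Rps3 -0.50, Rpl13a -0.48, Rps27a -0.62, Rpl22 -0.42, Rpl22l1 -0.66 and Rps4x -0.75. Under quantile normalization they were Rplp0 -0.30, Rps19 -0.10, Rps29 -0.22 and Rps4x -0.19. The deposited normalized values gave Rplp0 -0.27, Rps19 -0.09, Rps29 -0.21, Rps27a -0.10 and Rps4x -0.19. Normexp with quantile normalization gave Rplp0 -0.22, Rpl27a -0.02, Rps19 -0.18, Rps29 -0.20 and Rps4x -0.14. Normexp with the 75th percentile shift gave Rplp0 -0.14, Rpl28 0.27, Rpl15 0.24, Rps19 -0.02, Rps29 -0.07, Rpl5 -0.01, Rps3 -0.37, Rps27a -0.80, Rpl22l1 -0.02 and Rps4x -0.24. Rpl27a was -0.22 and Rpl15 0.06 without AP replicates 2 and 3, and Rpl28 was 0.01 without control replicate 1 and -0.29, in its first direction, without AP replicate 1. A slide block was not run because all arrays were on 1 slide. With 2 arrays per group, 2 residual degrees of freedom limit every call.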
